A study of Mus musculus with 8 samples.

Results

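Growth hormone, prolactin and STAT5 signalling in the liver was examined through 10 genes, taken from the count table by their Ensembl IDs on GRCm38: the receptor genes Ghr and Prlr, the transcription factor genes Stat5a and Stat5b, the regulator genes Bcl6, Cux2 and Tox, and the target genes Socs2, Cish and Igf1. The table holds 49671 gene IDs, and all 10 genes were among the 13117 that passed the expression filter. The RNA came from livers of C57BL/6 mice (C57BL/6N in the study's methods) after weaning, with 2 libraries for each of 4 groups, WT and NT-KO of either sex. NT-KO mice were homozygous for a deletion in Lbr, which encodes the lamin B receptor of the inner nuclear membrane. The deletion covers the canonical start of translation and part of the intron before it, was made by CRISPR/Cas9 and descends from a single male founder, and it leaves the sterol reductase domains in place. WT mice carried no such deletion, and the labels give no treatment. The libraries belong to a study that presents the deletion as a mouse model of Pelger-Huet anomaly, a disorder of white blood cell nuclei. That study also asked whether inactivation of the X chromosome in mice needs the N-terminus of LBR.

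Growth hormone from the pituitary binds the growth hormone receptor on hepatocytes, which activates the kinase JAK2, and JAK2 phosphorylates STAT5 proteins that then enter the nucleus and bind DNA. The prolactin receptor signals through the same kinase and the same STAT5 proteins. In rodents the hormone is secreted in sharp pulses in males and more evenly in females, and STAT5 activity in the liver follows these patterns. Much of the difference between male and female liver, including many cytochrome P450 and major urinary protein genes, depends on this pattern. Socs2 and Cish encode feedback inhibitors that STAT5 induces within a short time of a hormone pulse, and Igf1 encodes the secreted growth factor that carries much of the hormone's action on the body.

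The libraries held between 45020377 and 64396291 counts. CPM is the count scaled to the library total multiplied by the library's TMM scaling factor. On this scale 1 count equalled 0.0147 to 0.0236 CPM. The labels do not state whether the 2 libraries of a group came from different animals, and p-values here measure the spread between libraries. With 2 against 2 libraries the smallest two-sided p of an exact permutation test is 0.333, so the tests come from a fit to all genes. Lbr itself stood at 7.99 and 6.54 CPM in the male WT libraries and 12.8 and 13.6 CPM in those of male NT-KO, and at 7.43 and 6.96 CPM in those of female WT against 13.1 and 14.0 CPM in those of female NT-KO, so its level does not show the deletion as a loss of counts. The 6 hepatocyte markers found summed to between 77804 and 113286 CPM, and both of these extremes were male WT libraries. Male WT replicate 2 stood apart by its acute phase genes, with a sum of 26535 CPM against 8273 to 14039 CPM in the other 7 libraries. In tissue RNA, fewer cells of a type and less RNA per cell cannot be told apart.

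Of the 10 genes, 3 differed between the sexes, and these were Prlr, Cux2 and Tox, each lower in males. In edgeR's quasi-likelihood test, called at a Benjamini-Hochberg FDR of at most 0.05, this count was 3 of 10 in WT, where 6.44% of all tested genes were called (3.32% lower in males), and 3 of 10 in NT-KO, where 1.86% were called (0.877% lower). Over both genotypes 3 of 10 were called too, against 7.84% of all tested genes (4.12% lower). None of the 10 was called for NT-KO against WT in males, where 0.0152% of all tested genes were called, in females with 0.00762%, over both sexes with 0.0152%, or for the difference of NT-KO against WT between the sexes with 0.0152%. At an unadjusted p under 0.05 the genes numbered 3 in males, 0 in females, 1 over both sexes and 3 for the difference between the sexes, beside 11.5%, 1.55%, 5.42% and 7.2% of all tested genes. These comparisons share libraries, so the values of 1 gene in several of them are not independent of each other. The counts for NT-KO against WT depended on the test. The likelihood ratio test of edgeR called 254 genes in males, Prlr among them, and 11 in females. The study used a generalised linear model in edgeR and reported more differentially expressed genes in males than in females.

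**Figure D1:**
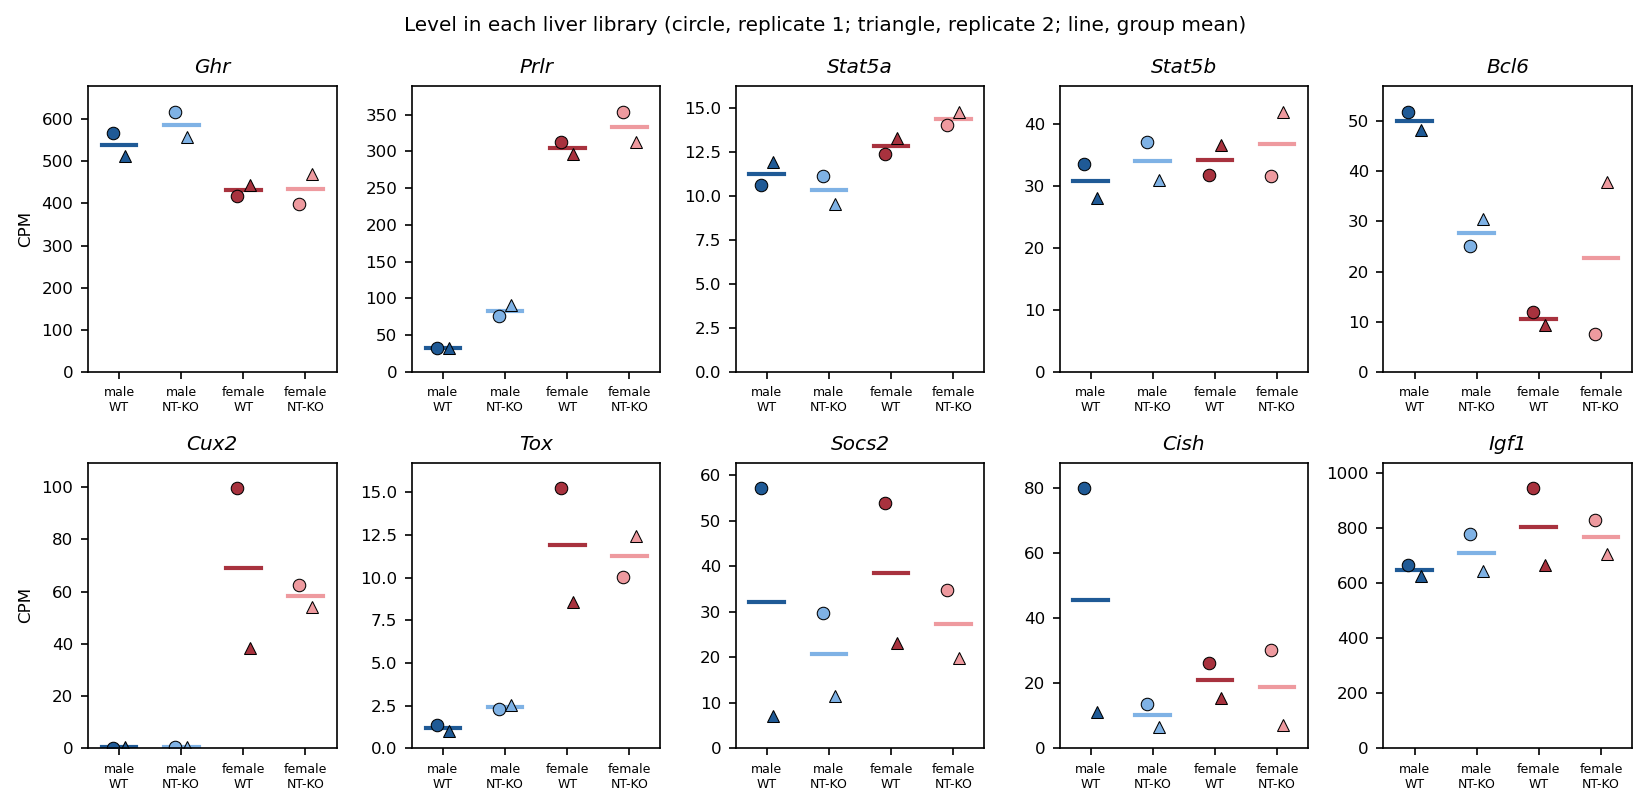
Level of each of the 10 genes in CPM (vertical axis, from 0) in the 4 groups of liver libraries, with a circle for replicate 1, a triangle for replicate 2 and a line at the group mean. Prlr, Cux2 and Tox lie lower in all 4 male libraries than in any female library, and the 2 male WT points of Socs2 and Cish lie 7.94-fold and 7.11-fold apart.

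Levels of different genes were compared per length, as RPKM over merged exons. Igf1 and Ghr had the highest levels of the 10 genes in every group, with 65.3 ± 2.85 and 59.6 ± 4.17 RPKM (mean ± SD, n = 2) in male WT and 81.3 ± 19.8 and 47.6 ± 1.97 RPKM in female WT. Below them the order differed between the sexes. In male WT the next levels were Bcl6 with 7.47, Cish with 7.11, Stat5b with 5.55, Socs2 with 3.38 and Prlr with 2.15 RPKM, and each of these neighbours overlapped in their 2 libraries. Stat5a with 1.58, Tox with 0.156 and Cux2 with 0.0345 RPKM followed, each without overlap with the gene just above it. The 2 Socs2 libraries, however, enclosed those of Stat5a. In female WT Prlr came next after Igf1 and Ghr with 19.8 ± 0.758 RPKM, and its libraries did not overlap those of Ghr above it or of Cux2, with 6.84 ± 4.28 RPKM, below it. Cux2 and Stat5b, with 6.16 RPKM, overlapped there, as did Socs2 with 4.04 and Cish with 3.27 RPKM, and Stat5a with 1.80, Bcl6 with 1.58 and Tox with 1.56 RPKM were the lowest and overlapped.

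In the NT-KO libraries the same scale put Prlr in males at 5.43 ± 0.718 RPKM, overlapping Stat5b with 6.14 RPKM above it and not Bcl6 with 4.14 RPKM below it. In female NT-KO Prlr again followed Ghr with 21.7 ± 1.86 RPKM, and Stat5b with 6.63, Cux2 with 5.77, Bcl6 with 3.38, Cish with 2.92 and Socs2 with 2.86 RPKM followed, each overlapping the next.

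**Figure D2:**
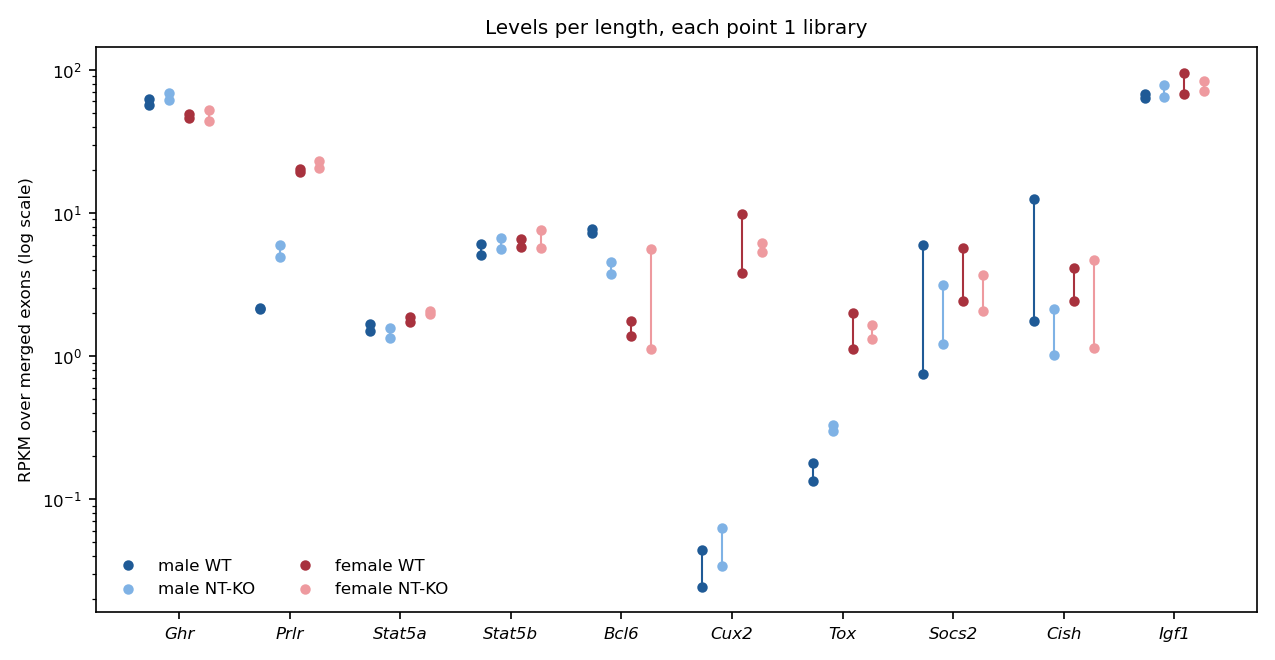
Level per length of the 10 genes in RPKM (log axis) in each library, by group. Igf1 and Ghr are highest in every group, while Cux2 spans the widest range, from 0.0345 RPKM on average in male WT to 6.84 RPKM in female WT.

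Prlr, the prolactin receptor gene (ENSMUSG00000005268, GRCm38 chr15:10177238-10349180, plus strand), was much lower in male than in female livers. It stood at 32.8 and 33.1 CPM in the male WT libraries, 75.5 and 91.1 CPM in those of male NT-KO, 312 and 296 CPM in those of female WT and 354 and 313 CPM in those of female NT-KO. The male WT libraries were the lowest, the male NT-KO libraries lay between them and the females, and both female NT-KO libraries lay above both female WT libraries, the nearest by less than 1 CPM. Expressed against the female WT mean, male WT reached 10.8% and male NT-KO 27.4%.

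In WT the log2 fold change of Prlr, male against female, was -3.21 (SE 0.19; FDR = 0.000155, edgeR's quasi-likelihood test), a level 9.24-fold lower in males. In NT-KO it was -2.00 (SE 0.18; FDR = 0.00112, edgeR), 4.00-fold lower. Both were called under every alternative run, including the omission of each library in turn. NT-KO against WT in males gave 1.34 (SE 0.18; 95% normal interval 1.00 to 1.68), or 2.53-fold, with an unadjusted p of 5.35e-05 and an FDR of 0.0877 in edgeR, so it missed the threshold. In females the value was 0.13, with an interval from -0.20 to 0.47 and an FDR of 1 in edgeR. The difference of these values between the sexes was 1.21 (SE 0.24; FDR = 0.573, edgeR).

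The call for Prlr in males depended on the test. DESeq2 gave FDR = 4.30e-09, edgeR's likelihood ratio test 8.46e-06 and the fit with no filter beyond 1 count 3.37e-06. The other alternatives, each omitted library included, gave FDR from 0.0607 to 0.237, with log2 fold changes from 1.19 to 1.47. The difference between the sexes was called by DESeq2 with FDR = 0.00425 and with no filter with 0.0204, and had FDR = 0.0525 in the likelihood ratio test.

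RefSeq promoter windows, which run from 250 bases before to 50 bases after a transcript's start, were searched for the STAT5 consensus TTCNNNGAA, which reads the same on both strands. It occurred in 8.30% of 32851 windows of 300 bases, in 3 of the 8 genes that have a window (4 of their 15 windows), and in 9.55% of 27025 genes. These 3 genes are Prlr, Bcl6 and Cish, and their matches are shown so that the letters can be read beside the levels. A match is a description of the letters and not a measured site. Of the 3 Prlr windows, only the middle one has a match, which lies 110 bases before its transcript start. Its 250 bases before the start (GRCm38.p6, chr15:10223656-10223905, plus strand, capitals mark the match) read as follows.
Prlr: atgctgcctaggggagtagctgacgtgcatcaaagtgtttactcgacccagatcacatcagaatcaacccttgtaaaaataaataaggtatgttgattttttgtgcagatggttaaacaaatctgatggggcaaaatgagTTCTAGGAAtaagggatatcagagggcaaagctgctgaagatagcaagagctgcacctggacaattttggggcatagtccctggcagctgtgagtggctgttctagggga

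Ghr, the growth hormone receptor gene (ENSMUSG00000055737, chr15:3317760-3583492, minus strand), lies 6.59 Mb from Prlr on the same chromosome and varied far less. Its values were 566 and 513 CPM in the male WT libraries, 617 and 557 CPM in those of male NT-KO, 419 and 444 CPM in those of female WT and 398 and 471 CPM in those of female NT-KO. Each male library was above each female library, while WT and NT-KO overlapped in both sexes. Male against female was 0.32 on the log2 scale in WT (FDR = 0.287, edgeR), 0.43 in NT-KO (FDR = 0.482, edgeR) and 0.38 over both genotypes (SE 0.13; interval 0.13 to 0.63; FDR = 0.110, edgeR), and none passed, though DESeq2 called the last (FDR = 0.0319). NT-KO against WT gave 0.12 in males, with an interval from -0.23 to 0.48, and 0.01 in females, with an interval from -0.34 to 0.37. Per length, the level of Ghr was 29.3 and 26.3 times that of Prlr in male WT, 13.8 and 10.4 times in male NT-KO, and 1.91 to 2.55 times in the female libraries.

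The STAT5 genes passed the test in none of the comparisons. Stat5a (ENSMUSG00000004043, chr11:100859351-100885169, plus strand) had 10.6 and 11.9 CPM in the male WT libraries, 11.1 and 9.53 CPM in those of male NT-KO, 12.4 and 13.3 CPM in those of female WT and 14.0 and 14.8 CPM in those of female NT-KO. All female libraries lay above all male libraries, but male against female was -0.34 over both genotypes (SE 0.11; interval -0.55 to -0.12; FDR = 0.104, edgeR) and did not pass, though it was called in edgeR with library size only (FDR = 0.0351). Stat5b (ENSMUSG00000020919, chr11:100780731-100850724, minus strand), which lies 8.626 kb from Stat5a, had 33.5 and 27.9 CPM, 37.1 and 31.0 CPM, 31.8 and 36.5 CPM, and 31.6 and 41.9 CPM in the same order of groups, and all 4 groups overlapped. Its male against female value was -0.13 over both genotypes (interval -0.40 to 0.14; FDR = 0.580, edgeR).

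For NT-KO against WT, Stat5a gave -0.12 in males (interval -0.44 to 0.19) and 0.16 in females (-0.14 to 0.47), and Stat5b 0.15 (-0.23 to 0.53) and 0.11 (-0.27 to 0.49). Per length, the level of Stat5b was 2.90 to 4.28 times that of Stat5a across the libraries. The genes are near copies in part: 8.52% of the 50-base stretches of Stat5a transcripts and 10.98% of those of Stat5b occur in the other gene, and how the counting treated reads that match both is not given in the sources used here.

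Cux2 (ENSMUSG00000042589, chr5:121856366-122050102, minus strand) encodes a repressor known for its expression in female liver, where it binds near male-biased genes. It was nearly absent from male libraries, with 14 and 19 counts in male WT (0.247 and 0.448 CPM) and 31 and 18 counts in male NT-KO (0.631 and 0.343 CPM). Female WT had 99.5 and 38.4 CPM and female NT-KO 62.4 and 53.9 CPM. The sexes were far apart, and the female WT libraries enclosed both female NT-KO libraries. Male against female was -7.66 in WT (SE 0.59; FDR = 0.000498, edgeR) and -6.90 in NT-KO (SE 0.56; FDR = 0.000808, edgeR), and both were called under every alternative. NT-KO against WT was 0.51 in males, with an interval from -0.75 to 1.78, and -0.24 in females, with an interval from -1.05 to 0.56.

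Tox (ENSMUSG00000041272, chr4:6686353-6991557, minus strand) encodes an HMG-box nuclear factor better known from T cells. It had 1.36 and 1.01 CPM in the male WT libraries, 2.28 and 2.52 CPM in those of male NT-KO, 15.2 and 8.58 CPM in those of female WT and 10.01 and 12.5 CPM in those of female NT-KO. As with Prlr, the male WT libraries were lowest and the male NT-KO libraries next, but here the female groups overlapped. The log2 fold change, male against female, was -3.31 in WT (SE 0.32; FDR = 0.00146, edgeR) and -2.23 in NT-KO (SE 0.31; FDR = 0.00852, edgeR). The call in NT-KO was lost without female NT-KO replicate 2 (FDR = 0.0670), male NT-KO replicate 1 (0.0799) or male NT-KO replicate 2 (0.0519). NT-KO against WT in males was 1.01 (SE 0.32; interval 0.38 to 1.63), with FDR = 0.305 in edgeR, and it was called only with no filter (FDR = 0.0187) among the alternatives. The T lymphocyte markers summed to 2.58 to 5.05 CPM over all libraries, and their part in the Tox values was not tested.

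Bcl6 (ENSMUSG00000022508, chr16:23965052-23988852, minus strand) encodes a repressor whose sites in male liver overlap those of STAT5. Its values were 51.8 and 48.3 CPM in the male WT libraries, 25.1 and 30.4 CPM in those of male NT-KO, 11.9 and 9.28 CPM in those of female WT and 7.50 and 37.8 CPM in those of female NT-KO. Male WT was highest and female WT well below it, and the female NT-KO libraries lay 5.04-fold apart, as far as 0.465% of tested genes in that pair. Male against female in WT was 2.24, or 4.74-fold (SE 0.60; FDR = 0.0644, edgeR), and missed the threshold. It was called by DESeq2 (FDR = 0.0302) and the likelihood ratio test (0.00408), with no filter (1.85e-20), with only the groups compared (0.00585), and without either female NT-KO replicate 1 (0.00234) or replicate 2 (0.00250). Over the other alternatives FDR ran from 0.0597 to 0.252.

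The Bcl6 values of the NT-KO females moved with the omission of either library. Male against female in NT-KO was 0.29 (FDR = 0.948, edgeR), but 1.89 without female NT-KO replicate 2 (FDR = 0.0206) and -0.45 without female NT-KO replicate 1. NT-KO against WT in females was 1.101 (interval -0.04 to 2.24; FDR = 1, edgeR), but -0.49 without female NT-KO replicate 2 and 1.84 without replicate 1. In males it was -0.85 (interval -1.98 to 0.28; FDR = 0.616, edgeR), with both male NT-KO libraries below both male WT libraries.

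Both Bcl6 windows hold the STAT5 consensus. The outer one has a match 118 bases before the transcript start, and the inner one has 3, at 168, 122 and 88 bases before it, a number reached by 11 of the 32851 windows (0.0335%). The 250 bases before each start (GRCm38.p6, chr16:23988853-23989102 and chr16:23981284-23981533, both minus strand, matches in capitals) are shown for their spacing.
Bcl6 outer: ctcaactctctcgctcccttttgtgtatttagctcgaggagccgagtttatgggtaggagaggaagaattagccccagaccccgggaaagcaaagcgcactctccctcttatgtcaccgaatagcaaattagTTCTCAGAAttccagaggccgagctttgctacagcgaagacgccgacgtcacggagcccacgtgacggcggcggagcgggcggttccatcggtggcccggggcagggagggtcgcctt
Bcl6 inner: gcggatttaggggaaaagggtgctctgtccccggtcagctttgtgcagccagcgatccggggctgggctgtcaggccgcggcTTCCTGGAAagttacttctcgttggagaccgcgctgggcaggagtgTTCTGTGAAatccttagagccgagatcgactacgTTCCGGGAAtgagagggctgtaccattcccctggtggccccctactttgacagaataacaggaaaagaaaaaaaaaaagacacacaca

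**Figure D3:**
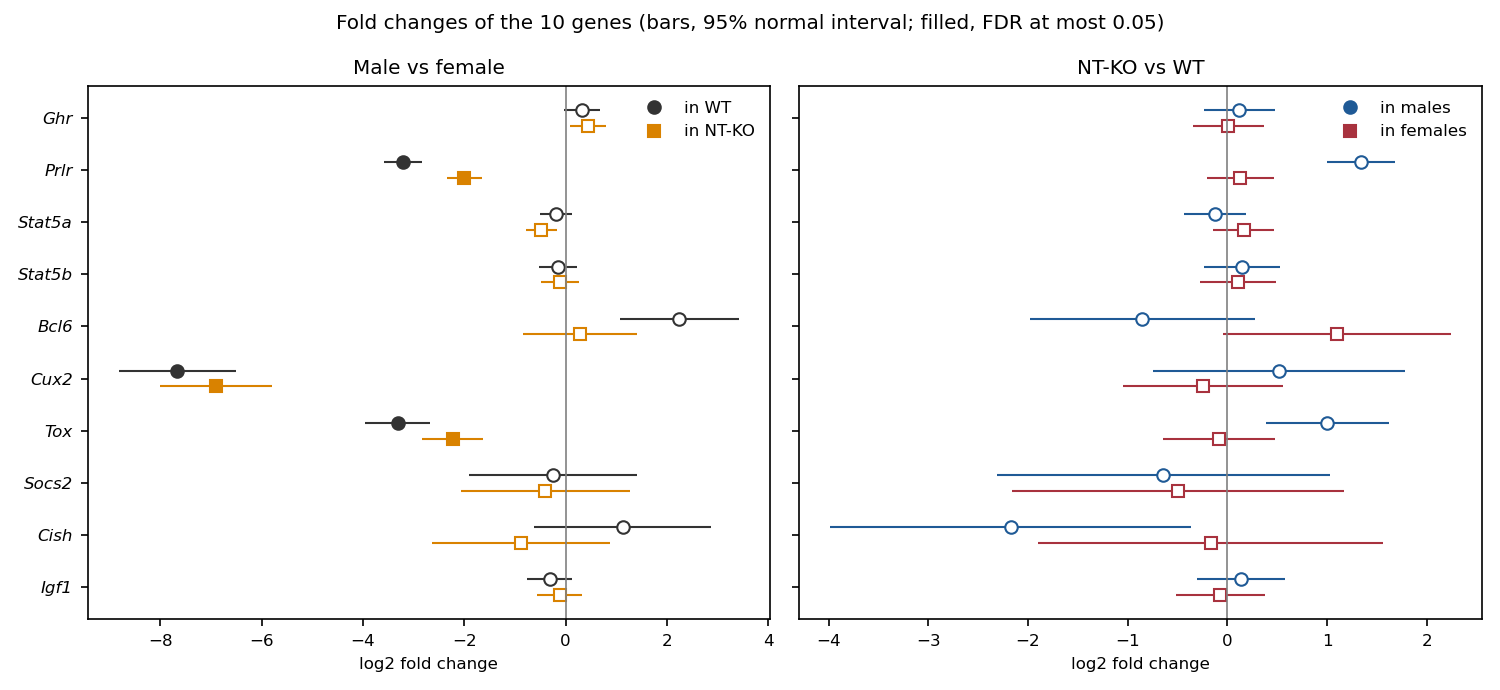
Log2 fold change of the 10 genes (horizontal axis; bars, 95% normal interval; filled points, FDR at most 0.05), for male against female in each genotype (left) and NT-KO against WT in each sex (right). Prlr, Cux2 and Tox are filled in both genotypes on the left, from -7.66 to -2.00, no point is filled on the right, and Prlr in males lies at 1.34.

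Socs2, Cish and Igf1, the target genes, passed no comparison. Socs2 (ENSMUSG00000020027, chr10:95385362-95417180, minus strand), a brake on growth hormone receptor signalling, had 57.1 and 7.20 CPM in the male WT libraries, 29.8 and 11.5 CPM in those of male NT-KO, 53.9 and 23.1 CPM in those of female WT and 34.8 and 19.8 CPM in those of female NT-KO. Cish (ENSMUSG00000032578, chr9:107296026-107302784, plus strand), which encodes the inhibitor CIS, had 80.0 and 11.3 CPM in the male WT libraries, 13.7 and 6.56 CPM in those of male NT-KO, 26.3 and 15.6 CPM in those of female WT and 30.1 and 7.32 CPM in those of female NT-KO. In both genes the spread within a group was as wide as that between groups. The male WT libraries lay 7.94-fold apart for Socs2 and 7.11-fold for Cish, and 0.404% and 0.450% of tested genes were as far apart in that pair.

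The intervals of these genes were wide. Male against female in WT was -0.25 for Socs2 (interval -1.92 to 1.41; FDR = 0.872, edgeR) and 1.12 for Cish (interval -0.62 to 2.87; FDR = 0.448, edgeR). NT-KO against WT in males was -0.64 for Socs2 (interval -2.31 to 1.03; FDR = 0.825, edgeR) and -2.17 for Cish (interval -3.98 to -0.37; FDR = 0.426, edgeR). Without male WT replicate 1, the library with the highest Socs2 and Cish, these became 1.52 and -0.16. The fit with no filter beyond 1 count called the Cish value with FDR = 1.12e-18 although its male WT libraries lay 7.11-fold apart.

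In all 4 groups the library numbered 1 in the labels had more Socs2 and more Cish than the library numbered 2, by at least 1.76 times for Socs2 and 1.68 times for Cish. Igf1 had the same order with a smallest ratio of 1.06. Replicate 1 was higher in all 4 groups for 893 of 13117 tested genes (6.81%), and at least 1.5 times higher in all 4 for 17 (0.13%), Socs2 and Cish among them. Others of these 17, named after their values were seen, were Gadd45g, Foxq1, Igfbp1, Myc, Dusp1 and Fos, several of which are known as early response genes. Gadd45g had the largest of the smallest ratios, 3.89. The labels give no batch, day or time of collection for the numbers. Over all tested genes, deviations of same-numbered libraries correlated at -0.18 to 0.11 in the pairs of groups compared. Whether few genes share a factor by number was not tested.

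**Figure D4:**
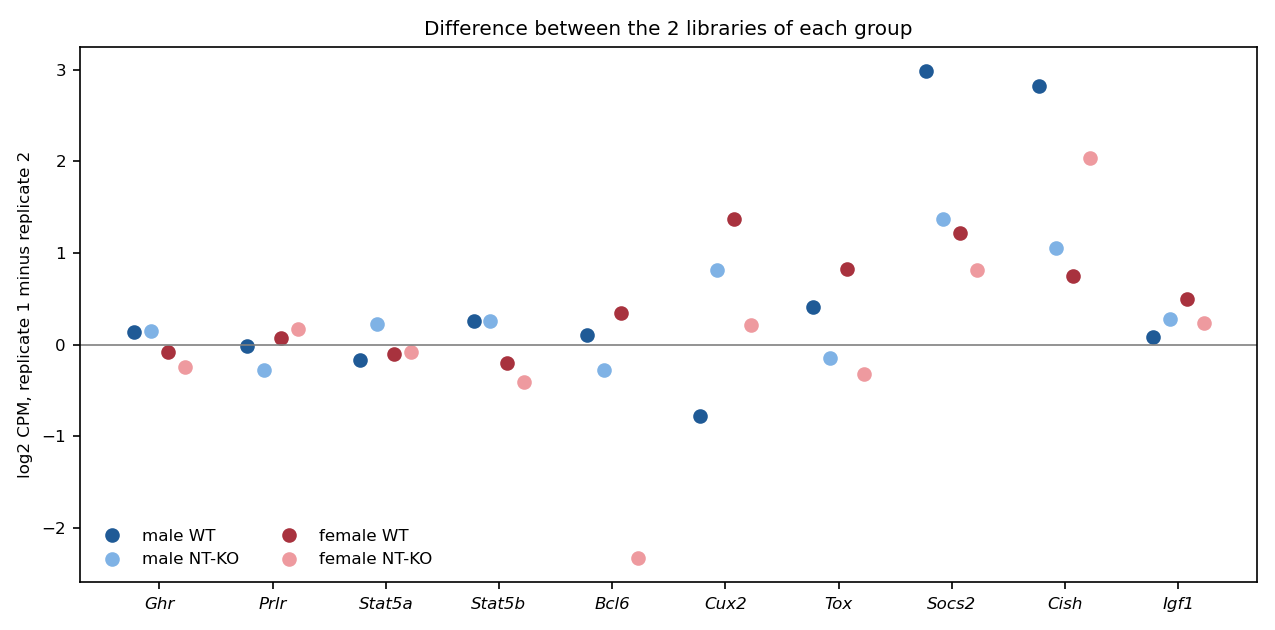
Difference between the libraries numbered 1 and 2 of each group in log2 CPM (vertical axis) for the 10 genes, by group. Socs2 and Cish lie above 0 in all 4 groups, with male WT highest, while Bcl6 in female NT-KO lies furthest below 0 at a 5.04-fold difference.

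Cish is shown at its start because its window holds 2 matches of the STAT5 consensus close together, at 0 and 11 bases after the transcript start, and 0.457% of all windows hold 2 or more. The 30 bases around them (GRCm38.p6, chr9:107296654-107296683, plus strand, matches in capitals) are the following.
Cish: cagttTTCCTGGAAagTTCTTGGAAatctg

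Igf1 (ENSMUSG00000020053, chr10:87858265-87937042, plus strand), which lies 7.45 Mb from Socs2, had 666 and 627 CPM in the male WT libraries, 779 and 642 CPM in those of male NT-KO, 943 and 667 CPM in those of female WT and 830 and 705 CPM in those of female NT-KO. Both male WT libraries were below all 4 female libraries, and the other pairs of groups overlapped. The nearest of these, male WT replicate 1 and female WT replicate 2, were almost equal, with 666.4 and 666.5 CPM. Male against female was -0.32 in WT (interval -0.76 to 0.13; FDR = 0.402, edgeR) and -0.11 in NT-KO (interval -0.56 to 0.33; FDR = 0.950, edgeR). NT-KO against WT was 0.14 in males (interval -0.31 to 0.58) and -0.07 in females (interval -0.51 to 0.38).

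Counted without a test, the groups did not overlap for 7 of the 10 genes between male and female WT (beside 62.0% of all tested genes) and for 5 between male and female NT-KO (34.3%). They did not overlap for 5 over both genotypes (16.1%), for 3 between NT-KO and WT in males (38.9%), for 2 in females (26.4%) and for 0 over both sexes (0.953%). The median log2 fold change of the 10 genes, male against female, was -0.22 in WT and -0.44 in NT-KO, and 0.00 and 0.01 over all tested genes. NT-KO against WT had a median of 0.13 in males and -0.03 in females, beside 0.01 and 0.00 over all tested genes.

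Summed markers of other cell types also differed in level between groups, although no Kupffer cell, endothelial, erythroid or B lymphocyte marker was called by edgeR for NT-KO against WT in either sex. Between male and female WT, edgeR called 4 of 5 erythroid markers higher and 3 of 6 B lymphocyte markers lower in males, beside 6.44% of all tested genes. In NT-KO 1 of each was called, both higher in males, beside 1.86%. No Kupffer cell or endothelial marker was called between the sexes. The 8 Kupffer cell and macrophage markers summed to 150 to 233 CPM in male WT and 196 to 266 CPM in male NT-KO, and to 279 to 336 CPM in the female libraries. The 6 endothelial markers summed to 106 to 160 CPM in males and 168 to 192 CPM in females, and the 5 erythroid markers to 445 to 947 CPM in male WT, 370 to 372 CPM in male NT-KO and 170 to 320 CPM in females. The 6 B lymphocyte markers summed to 9.72 to 11.3 CPM in male WT, 41.0 to 68.6 CPM in male NT-KO, 27.6 to 30.6 CPM in female WT and 12.6 to 15.5 CPM in female NT-KO, with male NT-KO above male WT and female NT-KO below female WT. All markers of these lists had over 3 counts in some library. Of the clock genes, Arntl had 4.16 and 4.11 CPM in the male WT libraries, 1.91 and 1.33 CPM in those of male NT-KO and 0.544 to 1.53 CPM in the female libraries, and Per3 44.9 and 44.7, 68.6 and 68.3, and 95.7 to 99.7 CPM. Of 11 clock genes tested, edgeR called 5 between male and female WT (3 higher and 2 lower in males), beside 6.44% of all tested genes. None was called for NT-KO against WT in males, where 7 had an unadjusted p under 0.05 in edgeR, beside 11.5%. There 6 were higher and 4 lower without overlap, beside 38.9% in either direction. The part of cell makeup and of the time of collection in the values of the 10 genes was not tested.

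A further 53 genes of the pathway were listed, and 49 were tested. The hormone genes themselves were not expressed: Gh had at most 1 count and Prl had 0 in every library. Of the 49, 11 were called between male and female WT (6 higher and 5 lower in males), 3 between male and female NT-KO (2 and 1) and 10 over both genotypes (5 and 5), beside 6.44%, 1.86% and 7.84% of all tested genes. None was called for NT-KO against WT in males, in females or over both sexes, or for the difference between the sexes, and 8, 0, 4 and 4 had an unadjusted p under 0.05, beside 11.5%, 1.55%, 5.42% and 7.2% of all tested genes. The median over the 49 was 0.12 for male against female in WT and -0.09 for NT-KO against WT in males.

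Among kinases and other STAT genes, Stat3, the main target of interleukin 6 signalling, was higher in males in WT by 0.96 on the log2 scale (FDR = 0.0229, edgeR), with 86.9 and 114 CPM against 50.1 and 53.3 CPM. Jak2, the receptor-bound kinase, had 0.12 in the same comparison (FDR = 0.700, edgeR) and -0.01 for NT-KO against WT in males. Among the feedback inhibitors and phosphatases, Socs3 was higher in males in WT by 2.04 (FDR = 0.0460, edgeR), Socs4 by 0.87 (0.0190) and Socs7 by 0.99 (0.0174), while Ptpn6, which encodes the phosphatase SHP-1, was lower by 0.67 (0.0406). Socs3 stood at 22.1 and 18.4 CPM in male WT and at 6.94 and 4.10 CPM in male NT-KO, a log2 fold change of -1.87 with FDR = 0.237 in edgeR. Its levels in female WT, 7.15 and 2.70 CPM, overlapped those of male NT-KO.

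In the IGF axis, Igfbp3, a carrier of IGF1 in blood, was the only gene called. It was lower in males by 1.06 in WT (FDR = 0.0325, edgeR) and by 1.29 in NT-KO (0.0244). Igfals, the other protein of that carrier complex, had -0.33 in WT and -0.72 in NT-KO (FDR = 0.563 and 0.556, edgeR), Igfbp1 had -1.79 and -0.10, and Igfbp2 had -0.31 and 0.91, and none passed. Of the other receptors, Egfr was higher in males by 1.40 in WT (FDR = 0.0362, edgeR) and 1.83 in NT-KO (0.0235), with 684 to 772 CPM in the male and 174 to 352 CPM in the female libraries. Lepr, the leptin receptor, was lower by 1.51 in WT (0.0427). Lifr and Esr1 had 0.43 and -0.50 in WT and were not called.

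Of the liver transcription factors, Foxa3 was higher in males by 1.75 in WT (FDR = 0.0108, edgeR) and by 1.57 in NT-KO (0.0236), and Trim24 was lower by 1.23 in WT (0.0250). Hnf4a, a master regulator of hepatocytes, had 0.43 (FDR = 0.159, edgeR) and Onecut1 1.40 (0.367) in WT. For NT-KO against WT in males Hnf4a had -0.20, Onecut1 -1.30, Foxa3 -0.73 and Trim24 0.31, none called.

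Lists of genes known to be sex-biased in mouse liver, many of them through growth hormone, were read beside the 10 genes. Of 19 male-biased genes, 16 were called higher in males in WT, 14 in NT-KO and 16 over both genotypes, with medians of 4.34, 3.84 and 3.93 on the log2 scale. Of 29 female-biased genes, 25, 23 and 26 were called lower in males, with medians of -7.39, -5.67 and -6.45. Of all tested genes, 6.44%, 1.86% and 7.84% were called in these comparisons, in either direction. Both lists were picked for their known bias, with earlier results of these data known, so their counts do not test that bias. The genes with the smallest FDR were C6 (a complement component), Cyp4a12b, Cyp2d9 and Mup20 on the male side, at 4.25, 9.27, 5.79 and 7.25 over both genotypes, and Cyp2a4, Cyp3a44, Abcd2 and Cyp2c40 on the female side, at -5.45, -7.33, -4.07 and -5.68. Many of these belong to families with near-identical copies, so their counts are uncertain. Of the genes with a promoter window, 1 of 11 male-biased and 5 of 22 female-biased genes held the STAT5 consensus.

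None of the sex-biased genes was called for NT-KO against WT in males or females. In males 4 male-biased genes had an unadjusted p under 0.05 (1 higher, 3 lower) and 8 female-biased genes (4 higher, 4 lower), beside 11.5% of all tested genes, and the medians were -0.22 and 0.02, with 0.01 and 0.07 in females. Abcd2, a peroxisomal transporter, had 1.18 and 1.25 CPM in the male WT libraries, 6.63 and 6.63 CPM in those of male NT-KO and 36.9 to 65.2 CPM in the female libraries. Its log2 fold change in males was 2.45 (SE 0.28; FDR = 0.0598, edgeR). The other 3 female-biased genes with the smallest p were Acot3 with 3.06 (FDR = 0.160), Cyp4a14 with 2.48 (0.229) and Atp6v0d2 with 1.25 (0.229), and on the male side C6 had -0.72 (0.229), Selenbp2 -1.28 (0.287), Cyp4a12b -0.59 (0.393) and Susd4 0.70 (0.420).

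The median of the female-biased genes in males moved with single libraries: it was -0.31 when male WT replicate 1 was left out, 0.05 when it was male WT replicate 2, and -0.74 when it was male NT-KO replicate 2. In male WT replicate 2, 6 of the 29 female-biased genes were over 5 times as high as in every other male library. The list as a whole was not raised there. Its median level was 0.630% of the female mean, beside 0.633% in male WT replicate 1. In male NT-KO it was 0.447% and 1.09% in replicates 1 and 2. Xist, the RNA of the inactive X chromosome, stood at 3.21 CPM in male WT replicate 2 and at 0.723 to 1.32 CPM in the other male libraries, beside 788 CPM or more in females. Its part in the values of that library was not tested.

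**Figure D5:**
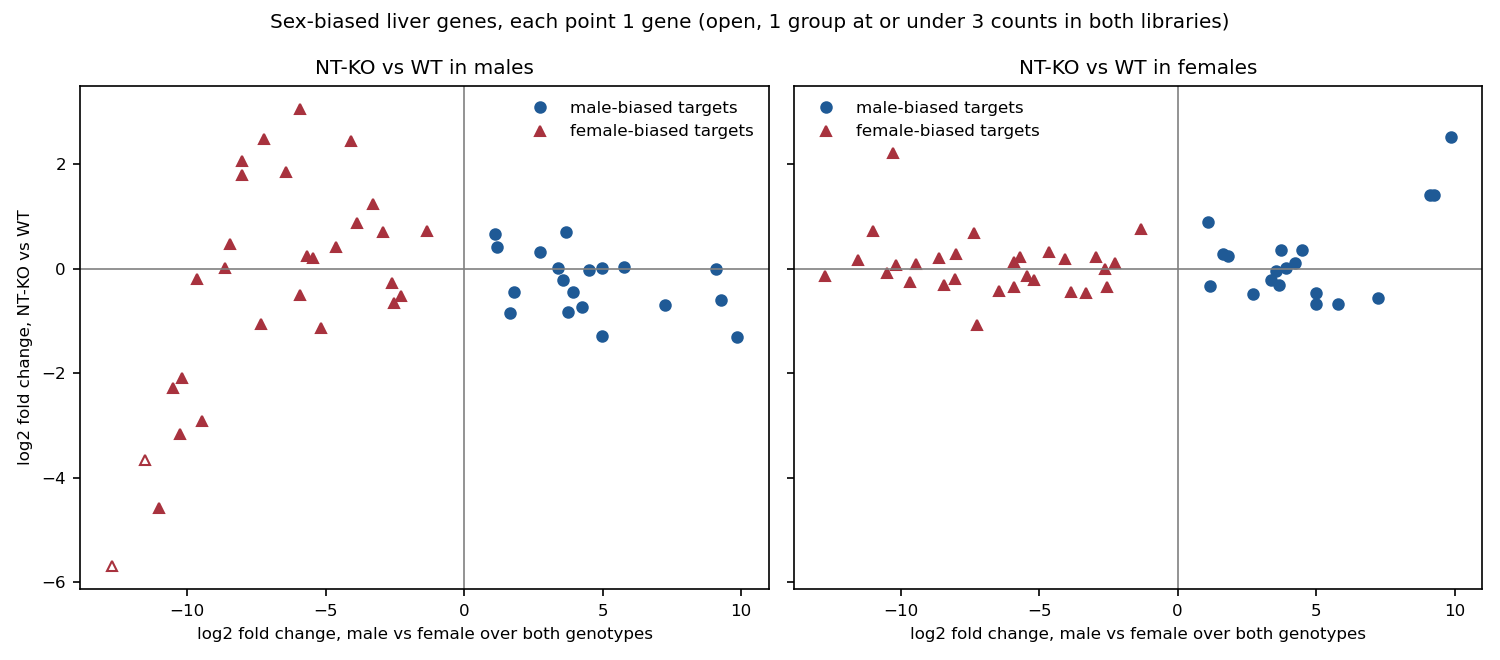
Log2 fold change of NT-KO against WT (vertical axis) in males (left) and females (right) against the log2 fold change of male against female over both genotypes (horizontal axis), for 19 male-biased genes (blue circles) and 29 female-biased genes (red triangles). Open points have 1 group at or under 3 counts in both libraries. In males the female-biased genes spread to both sides of 0 with a median of 0.02, and in females the 29 have a median of 0.07.

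For the 3 genes called between the sexes, the tested genes with the most similar pattern were found by the root mean square difference of log2 CPM, each gene centred on its own mean over the 8 libraries. Nearest to Prlr were Acot2, which encodes a mitochondrial thioesterase, at 0.219, Tox at 0.287 and Tnfaip8l3 at 0.330. Nearest to Tox were Acot2 at 0.212, Prlr at 0.287 and Vnn1 at 0.415. Prlr and Tox were thus among each other's 3 nearest genes of 13117. Acot2 had 0.776 and 0.873 CPM in the male WT libraries, 1.40 and 2.10 CPM in those of male NT-KO and 6.66 to 9.26 CPM in the female libraries. Nearest to Cux2, with its low male counts, were Cyp3a44 at 0.681, Cyp4a14 at 0.869 and Zbed4-ps2 at 0.885.

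Some exons of the 10 genes are shared with other annotated genes. Stat5a shares 72 exon bases with Stat3 on the opposite strand, and Stat3 had 2740 to 4926 counts. Of the 50-base stretches of Cish, 9.35% occur in other genes, mostly in the antisense gene Gm17041, which had 0 counts in every library, and the overlapping Gm17040 had 24 to 83 counts. The strand setting of the counting is not given in the sources used here, so Cish reads cannot be told from antisense reads in these stretches. In other genes occur 4.58% of those of Socs2, mostly in Gm9847 with 1 to 44 counts. For Tox 2.83% occur in Gm11802, with at most 8 counts, and for Prlr 1.04% in Gm21973, with at most 4. Ghr, Bcl6 and Igf1 shared no such stretch.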

How the data were processed

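The deposited values are read counts per gene in 8 liver libraries, which the authors made by trimming with cutadapt, alignment to GRCm38 with STAR 2.6.1a and counting with featureCounts, without normalization. Gene IDs were matched to Ensembl symbols and positions (49412 of 49671 matched). CPM and RPKM (over merged exons) were computed from the counts and the total library sizes times their TMM factors.

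The filter asked for 1 CPM or more in 2 or more libraries and dropped genes of mitochondrial RNA, miRNA and rRNA (2598), which left 13117. With edgeR 4.0.16 in R 4.3.3, a quasi-likelihood model with 1 mean per group was fitted to all 8 libraries with TMM scaling, and 7 contrasts were tested two-sided with Benjamini-Hochberg adjustment over all tested genes. The SE is the log2 fold change divided by the square root of F, and 95% intervals use the normal quantile, which is narrow for so few libraries. The fit was tested on simulated counts.

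The 10 genes, the other lists and the tests were chosen with earlier results of these data known. Named beside the 10 genes were the pathway genes with an FDR of at most 0.05 in any comparison and 12 others listed by name, the 4 sex-biased genes of each list with the smallest FDR between the sexes and the 4 with the smallest p for NT-KO against WT in males, and the 3 genes nearest in pattern to each called gene. The value of 1 pathway gene is not reported here. Alternatives were DESeq2 1.42.0, edgeR's likelihood ratio test, filterByExpr or no filter beyond 1 count, scaling by library size only or by RLE, a replicate block, a replicate block within sex, robust dispersion, only the groups compared, a minimum fold change of 2, an FDR of at most 0.01, RPKM over the longest transcript, and each library left out in turn, where the lone library left in a group is assumed to vary like the others. Promoter windows come from RefSeq on GRCm38.p6, which had windows for 8 of the 10 genes.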

Additional observations from a re-analysis of the deposited data

Results flagged for a closer look

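Of the pathway and sex-biased genes named above, 4 had both male NT-KO libraries on one side of both male WT libraries and both female NT-KO libraries on the opposite side of both female WT libraries. Cyp4a12b, Cyp4a14 and Atp6v0d2 were among the sex-biased genes named for their small p for NT-KO against WT in males. That choice favours the male side of the pattern, so their number does not test it. The share of all tested genes with this opposite pattern was not counted. In either direction, NT-KO and WT did not overlap for 38.9% of all tested genes in males and 26.4% in females. The log2 fold change of NT-KO against WT, males minus females, was -0.59 for Stat3, -2.00 for Cyp4a12b, 3.56 for Cyp4a14 and 1.72 for Atp6v0d2. The test of this difference gave FDR = 0.683, 0.573, 0.573 and 0.573 in edgeR's quasi-likelihood test, so none of the 4 passed. Cyp4a14 had 0.494 and 0.779 CPM in the male WT libraries, 5.57 and 1.47 CPM in those of male NT-KO, 323 and 326 CPM in those of female WT and 116 and 192 CPM in those of female NT-KO. None of the 10 genes showed this pattern, while of the 6 B lymphocyte markers 5 did, higher in male NT-KO and lower in female NT-KO.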

How the results depend on the processing

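Of 1199 recomputed log2 fold changes of the 10 genes, 1106 kept direction and side of the threshold, 31 passed it newly, 3 no longer passed and 59 changed sign. The genes called between the sexes numbered 3 under most settings, and 5 in WT with no filter beyond 1 count. For NT-KO against WT, no filter called 4 of the 10 genes in males, 1 in females, 3 over both sexes and 3 for the difference between the sexes, DESeq2 1 in males, 1 over both sexes and 1 for the difference, and the likelihood ratio test 1 in males and 1 over both sexes. With 2 libraries a group and fold differences up to 7.94 within a group, values such as those of Socs2 and Cish could not be placed more closely than their intervals.

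Counts over all tested genes moved more. Between male and female WT, 845 genes were called, and 159 at an FDR of at most 0.01, 1802 by DESeq2, 1707 by the likelihood ratio test, 1316 by library size only and 2664 with no filter. In NT-KO 244 became 121, 480 and 467 (FDR of at most 0.01, DESeq2, likelihood ratio test) and 976 with no filter, and over both genotypes 1028 became 550 with a minimum fold change of 2, 355, 1849, 1757 and 2722. For NT-KO against WT in males 2 became 308 by DESeq2, 254 by the likelihood ratio test, 6 by filterByExpr, 6 with robust dispersion, 917 with no filter and 0 with only the groups compared. In females 1 became 5, 11 and 194 by DESeq2, the likelihood ratio test and no filter, and 0 at an FDR of at most 0.01, with only the groups compared and with the replicate block within sex. Over both sexes 2 became 62, 51 and 445, and 0 at an FDR of at most 0.01, and the difference between the sexes went from 2 to 62, 46 and 552. The causes were not tested. The fit with no filter takes in more genes, and the part of this in its counts was not tested either.

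Over 13117 genes, deviations of same-numbered libraries correlated at -0.0067 between male WT and NT-KO and at 0.023 in females. Between the sexes they correlated at -0.18 in WT and 0.11 in NT-KO. A correlation over all genes does not show whether few genes share a difference by number. Socs2 and Cish were higher in replicate 1 in all 4 groups. The replicate block turned the sign of Cish between the sexes over both genotypes (-0.011) and of Socs2 for the difference between the sexes (0.080, and 0.27 with the block within sex, which also took Bcl6 over both sexes to -0.079). Library size only turned Cish between the sexes (-0.020) and Ghr in females (-0.013).

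With each library left out in turn, all tested genes called ranged from 181 to 1148 between the sexes in WT, 112 to 236 in NT-KO and 462 to 1189 over both genotypes, and from 2 to 21 for NT-KO against WT in males, 0 to 0 in females, 0 to 9 over both sexes and 1 to 7 for the difference. The log2 fold changes that changed sign ranged as follows. Male against female, Socs2 went from -2.41 to 0.57 and Cish from -0.89 to 1.93 in WT. In NT-KO Stat5b went from -0.30 to 0.11, Bcl6 from -0.45 to 1.89, Socs2 from -1.25 to 0.12, Cish from -1.57 to 0.47 and Igf1 from -0.26 to 0.014, and over both genotypes Socs2 from -1.41 to 0.086 and Cish from -0.89 to 0.79. NT-KO against WT in males, Socs2 went from -1.49 to 1.52 and Igf1 from -0.0090 to 0.26. In females Ghr went from -0.12 to 0.13, Stat5b from -0.11 to 0.29, Bcl6 from -0.49 to 1.84, Cux2 from -0.78 to 0.60, Tox from -0.44 to 0.39, Socs2 from -0.98 to 0.24, Cish from -1.52 to 0.52 and Igf1 from -0.30 to 0.20. Over both sexes Stat5a went from -0.039 to 0.075, Bcl6 from -0.67 to 0.49, Cux2 from -0.13 to 0.56, Socs2 from -0.99 to 0.51 and Igf1 from -0.081 to 0.17. For the difference between the sexes Ghr went from -0.0042 to 0.24, Stat5b from -0.15 to 0.26, Cux2 from -0.085 to 1.29, Socs2 from -0.99 to 2.00 and Igf1 from -0.066 to 0.44.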

Other observations

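The 6 stellate cell markers summed to 195 to 299 CPM over the 8 libraries, the 6 cholangiocyte markers to 26.8 to 60.3 CPM, the 6 neutrophil markers to 1.12 to 7.01 CPM and the 5 adipocyte markers to 5.52 to 12.6 CPM. The lowest cholangiocyte sums, 26.8 and 33.1 CPM, were the male NT-KO libraries. Of the 5 cholangiocyte markers tested, however, 4 had a positive and 1 a negative log2 fold change for NT-KO against WT in males. Their median was 0.23 and none was called by edgeR, so the sums do not give a direction for the list. Of the 6 pancreas markers, 5 had at most 3 counts in every library. Dbp, a clock output gene, had 28.4 and 30.8 CPM in male WT and 64.8 and 50.3 CPM in male NT-KO, and 43.6 to 69.8 CPM in the female libraries. The clock list of 12 genes summed to 533 and 596 CPM in male WT and to 661 to 796 CPM elsewhere. This sum hides opposite directions: for NT-KO against WT in males, 7 of the 11 tested had a positive and 4 a negative log2 fold change. Arntl, Per3 and Dbp were picked from the clock list by no fixed rule.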
